A study of Homo sapiens with 12 samples.

Results

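The line-specific response to doxycycline is the change in cells that can make hsa-miR-139-5p minus the change in matched control cells. It was followed over 9778 genes of the 37471 in the table used here, those with a mean of at least 1 FPKM (fragments scaled to gene length and library total) over the 12 libraries. All libraries came from CAL62, an established line of anaplastic thyroid carcinoma, as 2 isogenic lines: one with an inducible mature hsa-miR-139-5p and one with an inducible scrambled sequence. Each line was sampled at 0 h without doxycycline and after 96 h with 1 µg/ml, with 3 libraries in each of the 4 groups. The controls thus also carried an inducible construct and also received the drug. No library was taken at 96 h without doxycycline, so the doxycycline change of a line cannot be told apart from 96 h of culture. The series' design says the experiment was done 3 times. It does not say whether a line is 1 clone or whether each repeat was a separate culture, so the spread behind each p-value here may be technical. The libraries of a group carry the column tags C, NE and TR. Within each tag the doxycycline change of the scrambled line was subtracted from that of the miR-139 line on log2(FPKM + 1), which gave 3 within-tag values per gene, whose mean is the interaction.

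MicroRNAs guide Argonaute proteins to messenger RNAs, mostly through pairing of the seed (bases 2 to 8 of the miRNA) with sites in 3′ UTRs, and paired messages are translated less and degraded sooner. miR-139-5p is commonly found at low levels in thyroid carcinoma and other tumours, and its reported targets include regulators of growth, motility and RNA processing. Doxycycline is an antibiotic that also acts on mitochondrial translation in human cells, and a control line given the same drug lets changes shared by the lines be subtracted. Whether a remaining difference between the lines needs the induced RNA was not tested. The mature miRNA was not measured in these polyA libraries, and its hairpin gene MIR139 was listed at 0 FPKM in all 12.

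The sequences that frame the comparison are the miRNA and the sites in the 3′ UTRs of genes described further on. In the miRNA (RefSeq, GRCh38.p14) the capitals mark the seed; in the site windows (GENCODE 29, GRCh38) the capitals mark the 7-mer ACTGTAG, which pairs with the seed. An A right after the 7-mer makes the 8-mer ACTGTAGA.
hsa-miR-139-5p: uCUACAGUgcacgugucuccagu
HNRNPF: gaattgagacacaatactaatACTGTAGga
EIF4G2: aactgaatagcaacactgaatACTGTAGaa
NDRG2 site 1: ctaccctggggctctgaccacACTGTAGta
NDRG2 site 2: caacttctgctataacaataaACTGTAGag
CLPX: agcaatgcaggtattgcgataACTGTAGat
ETS1: ttgctggagagttttttatatACTGTAGcc
AXL site 1: taaaatcttatagttctaggcACTGTAGtt
FN1: cttaagtgtctggcccgcaatACTGTAGga
HNRNPF, EIF4G2 and NDRG2 are shown because they were the 3 of the 12 lowest genes with a site; CLPX, ETS1 and AXL are lower list members with one, and FN1 is a gene with a site and 3 positive values. The 7-mers lie on GRCh38, in the last exon of the gene's transcript with most 3′ UTR sequence: HNRNPF at chr10:43386151-43386157 (minus strand, exon 4 of 4), EIF4G2 at chr11:10797459-10797465 (minus, exon 22 of 22), NDRG2 at chr14:21016840-21016846 and chr14:21016782-21016788 (minus, exon 17 of 17), CLPX at chr15:65150505-65150511 (minus, exon 14 of 14), ETS1 at chr11:128458825-128458831 (minus, exon 4 of 4), AXL at chr19:41261420-41261426 (plus, exon 20 of 20) and FN1 at chr2:215361144-215361150 (minus, exon 45 of 45). EIF4G2, CLPX and the second site of NDRG2 are 8-mers.

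Among genes at a mean of 100 FPKM or more, a pair from the mRNA machinery had the lowest values when each gene is ranked by the smallest in size of its 3: HNRNPF, a splicing regulator that binds G-rich RNA, and EIF4G2, a translation initiation factor related to EIF4G1. By the mean of the 3, KRTAP2-3 (−0.81) came between HNRNPF (−1.09) and EIF4G2 (−0.74). HNRNPF had within-tag values of −1.04, −1.18 and −1.06 (C, NE, TR), and those of EIF4G2 were −0.74, −0.88 and −0.61. HNRNPF was at 193, 238 and 184 FPKM without doxycycline and 96.7, 113 and 85.9 with it in the miR-139 line (order C, NE, TR throughout), and at 191, 246 and 188 and then 198, 265 and 184 with the scrambled sequence. EIF4G2 was at 438, 451 and 442 and then 252, 238 and 264 FPKM in the miR-139 line, and at 444, 355 and 459 and then 428, 347 and 418 in its control. For HNRNPF almost all of the interaction came from the miR-139 line, where the log2 change was −1.05 against 0.04 in the scrambled line, and for EIF4G2 the 2 changes were −0.82 and −0.07. The treated miR-139 libraries overlapped none of the other 9 libraries for either gene. CPSF3, the endonuclease that cuts pre-mRNA before polyadenylation, lay outside this ranking at a mean of 34.5 FPKM and had −0.37, −0.71 and −0.58. It was at 33.1, 45.8 and 38.8 FPKM before doxycycline in the miR-139 line and at 25.99, 29.2 and 26.3 after it. The scrambled line had 34.1, 36.9 and 34.6 before and 35.0, 38.9 and 35.4 after. The treated miR-139 libraries were below all others for CPSF3 as well, and its 3′ UTR held no 7-mer.

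In the limma fit without the tag, 0 of 9778 genes (0%) had an interaction with an adjusted p under 0.05, and 41 passed 0.05 before adjustment. Adding the tag to the model as a replicate block gave 1 called gene in limma (0.0102%), HNRNPF (interaction −1.09, SE 0.11, adjusted p = 0.00166, lower in 3 of 3 tags), and 336 genes passed 0.05 before adjustment. That call was lost without the C libraries (limma with the block, −1.12, adjusted p = 0.912), without NE (−1.05, adjusted p = 0.0617) and without TR (−1.11, adjusted p = 0.0806). It was also lost when limma was run on the 3 within-tag values alone (SE 0.24, adjusted p = 0.700). EIF4G2 (blocked SE 0.14, limma adjusted p = 0.525) and CPSF3 (blocked SE 0.12, limma adjusted p = 0.778) were not called. All other genes below are therefore described by their values in each tag, and none of them passed the test.

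**Figure D1:**
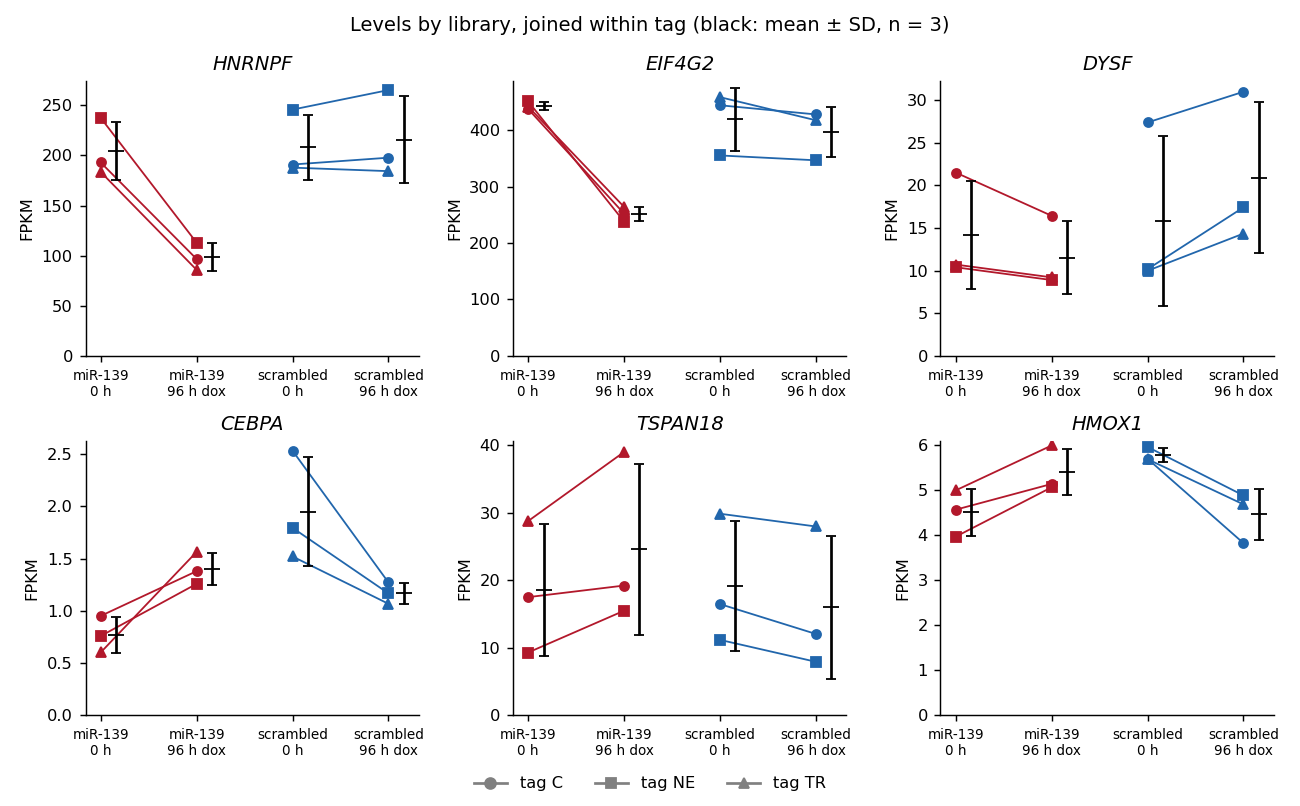
FPKM (y axis) of 6 genes in each of the 12 libraries by group (x axis), libraries that share a tag being joined within each line and black bars giving the mean ± SD (n = 3). The treated miR-139 libraries lie below all others for HNRNPF and EIF4G2, while DYSF, CEBPA and HMOX1 move in opposite directions in the lines in 3 of 3 tags.

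Of the tested genes, 1785 (18.3%) had 3 negative within-tag values, meaning a lower doxycycline change in the miR-139 line in every tag, and 1359 (13.9%) had 3 positive ones. The tags themselves had little in common. Across genes, which are not independent replicates, Pearson's r between the within-tag values of C and NE was 0.14, of C and TR 0.04, and of NE and TR 0.07, and the 3 values of each pair come from different libraries. For C, NE and TR the SD over genes was 0.30, 0.34 and 0.29, and most shared-sign genes moved little: 83 of the 1785 and 73 of the 1359 had a mean of at least 0.5 in size, and 5 and 1 of at least 1.

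The balance between negative and positive genes depended on the scaling. With upper quartile scaling, 12.8% of genes had 3 negative values and 19.2% had 3 positive ones, and with quantile normalization 15.0% and 16.8%, while the median interaction moved from −0.02 to 0.02 and 0.00. All 12 lowest and all 12 highest genes kept their 3 signs under both. The balance also depended on level: 12.7% of genes at 1 to 5 FPKM were negative in 3 tags and 15.1% positive, against 16.4% and 14.6% at 5 to 20 FPKM, 22.5% and 13.4% at 20 to 100 FPKM and 25.5% and 9.94% at 100 FPKM or more. Beside the main lists below stands the share at the level of the list's median gene, called its level share. Level shares are without further scaling. Counts with upper quartile scaling compare instead with 12.8% negative and 19.2% positive of all genes. Those with quantile normalization compare with 15.0% and 16.8%.

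Among the 1785 negative genes, 1256 had a mean change below 0 in the miR-139 line and above 0 in the scrambled line, 189 were below 0 in both and 340 above 0 in both. The median change was −0.08 for the miR-139 line and 0.11 for its control, and in 44.6% of these genes the miR-139 line had the larger change of the lines. The line difference of these genes (miR-139 minus scrambled, median) was 0.08 before doxycycline and −0.12 after it. Among the 1359 positive genes the medians were 0.11 for the miR-139 line and −0.09 for its control, and the lines differed by −0.09 before and 0.10 after. An untreated difference enters the interaction with the opposite sign, and its part in these values cannot be told apart from the response.

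**Figure D2:**
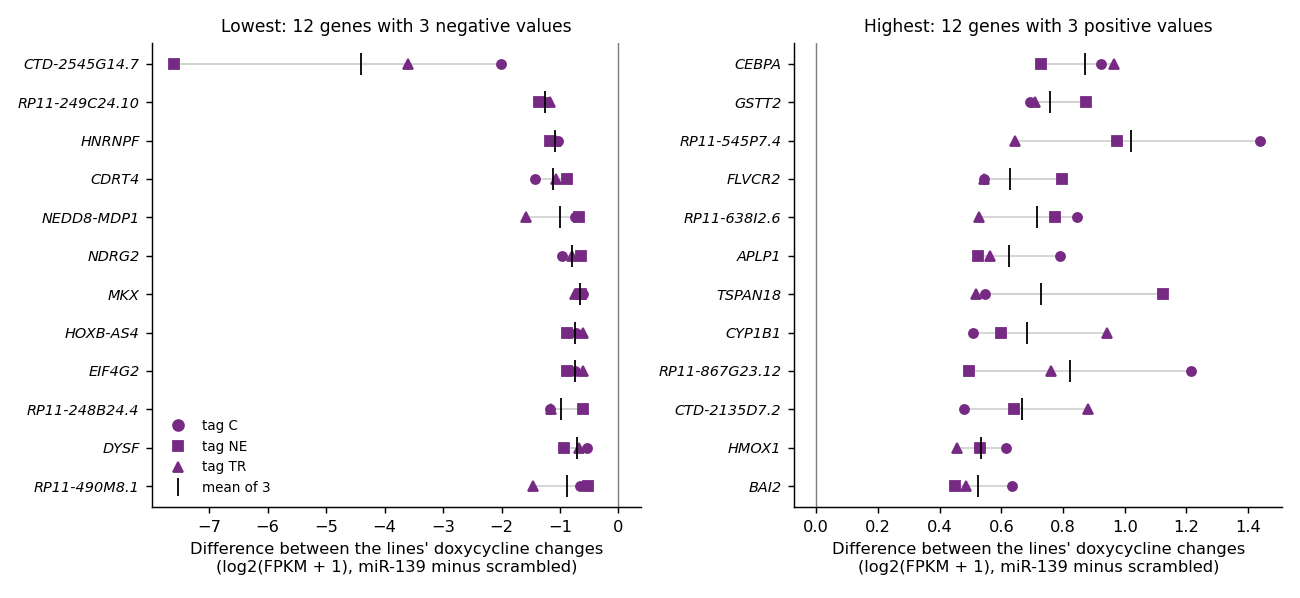
The 3 within-tag values (symbols) and their mean (black bar) on log2(FPKM + 1) (x axis) for the 12 genes with 3 negative and the 12 with 3 positive values whose smallest value in size was largest (y axis). HNRNPF and EIF4G2 are the only ones of the 24 above 100 FPKM, and CTD-2545G14.7 spans −7.60 to −2.01.

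Ranked by the smallest of the 3 values, the 12 lowest genes were CTD-2545G14.7, RP11-249C24.10, HNRNPF, CDRT4, NEDD8-MDP1, NDRG2, MKX, HOXB-AS4, EIF4G2, RP11-248B24.4, DYSF and RP11-490M8.1. NDRG2, a stress-responsive protein often low in tumours, was at 2.52, 3.22 and 3.09 FPKM before doxycycline in the miR-139 line and at 1.95, 2.48 and 1.93 after it. With the scrambled sequence it went from 1.78, 3.15 and 2.40 to 3.53, 4.31 and 3.22. Its within-tag values were −0.96, −0.63 and −0.79 (blocked SE 0.19, limma adjusted p = 0.778). The treated miR-139 libraries were all below the untreated ones of that line, and the treated scrambled libraries were above the 9 others.

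DYSF, dysferlin, a membrane repair protein, was at 21.5, 10.4 and 10.7 FPKM untreated and 16.4, 8.89 and 9.20 treated in the miR-139 line. The scrambled line had 27.3, 10.2 and 9.97 untreated and at 30.9, 17.4 and 14.3 treated. The C libraries were highest in each group, so the groups overlapped although the values within tags were −0.54, −0.93 and −0.68 (blocked SE 0.17, limma adjusted p = 0.778). MKX, the homeobox factor of tendon cells, had values of −0.62, −0.64 and −0.74, and CDRT4, at a mean of 1.03 FPKM, had −1.44, −0.88 and −1.07.

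Several of the lowest genes are uncertain. CTD-2545G14.7 was at 8.26, 0.0138 and 67.0 FPKM in the treated miR-139 libraries, which spanned its whole range. Its untreated scrambled libraries (10.3, 0.0709 and 1.23) lay below all untreated miR-139 and all treated scrambled ones. The untreated line difference was 2.97. NEDD8-MDP1 is a readthrough of NEDD8 and MDP1 and was at about 0 in 1 library, and HOXB-AS4 lies antisense in the HOXB cluster. Whether strand was used in the authors' FPKM step is not given in the sources used here, so reads of these genes and of their neighbours cannot be told apart.

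The 12 highest genes were CEBPA, GSTT2, RP11-545P7.4, FLVCR2, RP11-638I2.6, APLP1, TSPAN18, CYP1B1, RP11-867G23.12, CTD-2135D7.2, HMOX1 and BAI2. CEBPA, a transcription factor of differentiation, was at 0.952, 0.760 and 0.603 FPKM untreated and 1.38, 1.26 and 1.57 treated in the miR-139 line. The control line had 2.53, 1.80 and 1.52 untreated and 1.27, 1.17 and 1.07 treated. The untreated lines did not overlap, with the scrambled line higher (log2 difference −0.73), and the treated lines did overlap (0.15), so most of its interaction of 0.87 (blocked SE 0.21, limma adjusted p = 0.797) lay in the untreated libraries. RP11-545P7.4, RP11-638I2.6 and RP11-867G23.12, transcripts named only by their clones, had the same pattern, with untreated differences of −1.05, −0.81 and −0.66 and treated ones of −0.03, −0.10 and 0.17.

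TSPAN18, a tetraspanin, and BAI2, an adhesion G protein-coupled receptor, differed from this in having lines alike before treatment (−0.07 and −0.02) and apart after it (0.66 and 0.50). TSPAN18 was at 17.5, 9.32 and 28.8 FPKM untreated and 19.2, 15.5 and 39.0 treated in the miR-139 line, and at 16.5, 11.2 and 29.9 and then 12.1, 7.94 and 28.0 in the scrambled line. Its tags differed more than its groups, which overlapped, and the within-tag values were 0.55, 1.12 and 0.52 (blocked SE 0.16, limma adjusted p = 0.778). APLP1, a relative of the amyloid precursor protein, had values of 0.79, 0.52 and 0.56. HMOX1, which degrades heme, had 0.61, 0.53 and 0.46, and FLVCR2, a membrane transporter related to the heme exporter FLVCR1, had 0.54, 0.80 and 0.55. GSTT2 (0.69, 0.87 and 0.71) has a near-identical neighbour, GSTT2B, with which it may share reads.

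A stricter pattern is a response opposed between the lines, with all 3 changes of one sign in the miR-139 line and all 3 of the other sign in the scrambled line. It held for 233 genes (2.38%) lower in the miR-139 line and higher in the scrambled line, and for 155 (1.59%) in the other direction. With upper quartile scaling the counts turned to 129 and 244, and with quantile normalization to 170 and 222. The 8 leading genes in each direction were opposed under both scalings. HNRNPF and EIF4G2 were not among the opposed genes, because their changes in the scrambled line were near 0 or of the same sign.

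**Figure D3:**
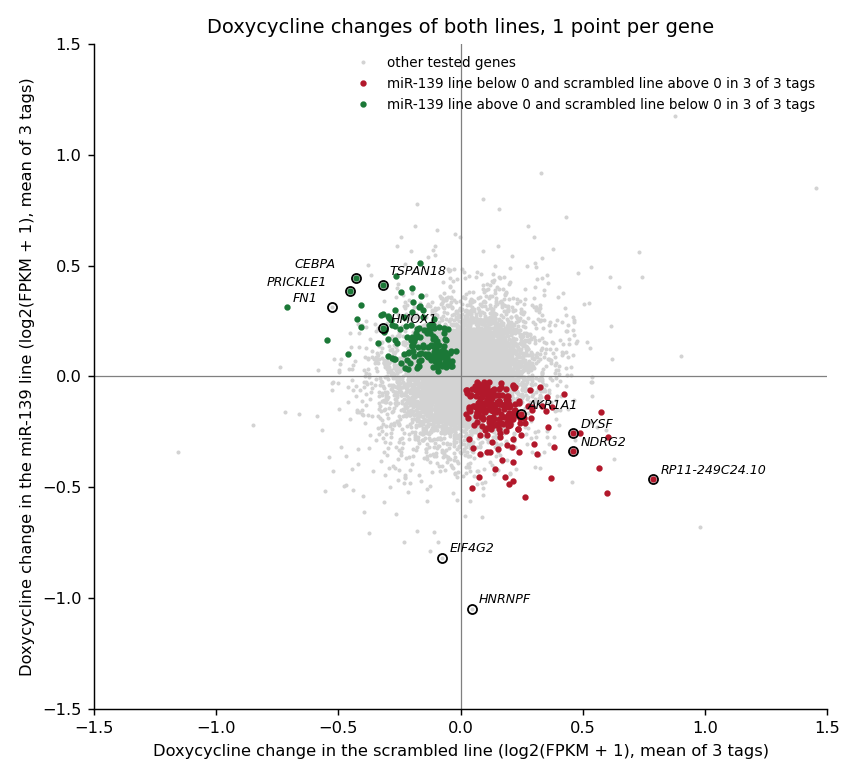
Mean doxycycline change on log2(FPKM + 1) in the scrambled line (x axis) and the miR-139 line (y axis), 1 point per tested gene, with 2 genes outside the plotted range. Red and green points are the 233 and 155 opposed genes; HNRNPF and EIF4G2 lie far down the y axis with little change on the x axis.

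The leading opposed genes that were lower in the miR-139 line were RP11-248B24.4, NDRG2, RP11-249C24.10, ANKRD10-IT1, DYSF, AKR1A1, HEATR5A and RP4-742J24.2. RP11-249C24.10 was at 2.84, 4.16 and 3.16 FPKM before and 2.29, 2.43 and 1.78 after doxycycline in the miR-139 line, and at 3.08, 0.803 and 1.84 before and 7.16, 2.06 and 3.29 after in the scrambled line. AKR1A1, an aldehyde reductase, was the most abundant, at 56.3, 59.8 and 54.4 FPKM before and 49.5, 53.9 and 48.0 after in the miR-139 line. The scrambled line had 57.0, 71.3 and 41.9 before and 64.2, 86.5 and 51.5 after. Its changes were small and even, −0.18, −0.15 and −0.18 against 0.17, 0.27 and 0.29. HEATR5A, a protein of endosomal transport, had −0.20, −0.32 and −0.30 against 0.16, 0.18 and 0.15. ANKRD10-IT1 lies within ANKRD10, so its reads may belong to that gene.

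Opposed in the other direction were CEBPA, AC007383.4, AL589743.1, HMOX1, STX3, ST3GAL2, PRICKLE1 and CTD-2270L9.4. HMOX1 was at 4.57, 3.97 and 5.00 FPKM before and 5.14, 5.07 and 5.999 after in the miR-139 line, and at 5.71, 5.97 and 5.70 before and 3.83, 4.89 and 4.69 after in the scrambled line. The untreated miR-139 libraries were all below the untreated scrambled ones, and the treated ones all above the treated scrambled ones. PRICKLE1, of the planar cell polarity pathway, had changes of 0.40, 0.57 and 0.18 against −0.48, −0.75 and −0.12. STX3, a syntaxin of apical membrane traffic, had 0.13, 0.26 and 0.13 against −0.13, −0.25 and −0.18. ST3GAL2, a sialyltransferase, had 0.14, 0.21 and 0.14 against −0.12, −0.19 and −0.29.

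Genes with a seed site had lower within-tag values more often than genes without one. A 3′ UTR was found for 7934 of the tested genes, and the rule that chose the genes did not use it. Of 894 genes with the 7-mer, 25.2% had 3 negative and 10.1% had 3 positive values. Of the 272 with the 8-mer these were 32.4% and 7.72%, and of 7040 with no 7-mer 18.8% and 14.9%. The median interaction was −0.06, −0.11 and −0.02. With upper quartile scaling the shares were 19.1% and 14.9%, 27.6% and 9.93%, and 12.9% and 20.8%. The order held within each range of 3′ UTR length: under 1 kb 35.8% of 67 genes with the 7-mer were negative in 3 tags against 20.3% of 3196 without, from 1 kb to under 3 kb 27.2% of 335 against 18.3% of 2677, and from 3 kb 22.4% of 492 against 15.7% of 1167.

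The tags differed in this. Median within-tag values of genes with the 7-mer were −0.06, −0.12 and 0.01 in C, NE and TR, against 0.00, −0.03 and −0.02 without it. Over all lengths the 7-mer genes were thus not lower in TR as a group, and 8-mer genes were (−0.04). Within each range of 3′ UTR length the TR median with the 7-mer was slightly below that without it. The medians were −0.10 against −0.07 under 1 kb, −0.02 against 0.01 up to 3 kb and 0.05 against 0.07 from 3 kb. Read the other way, 14.5% of genes with 3 negative values held the 7-mer, against 7.90% of those with 3 positive values and 11.3% of all. Among opposed genes with a 3′ UTR it was 33 of 212 in the direction lower in the miR-139 line and 8 of 126 in the other. No p is given, since genes do not replicate a condition.

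**Figure D4:**
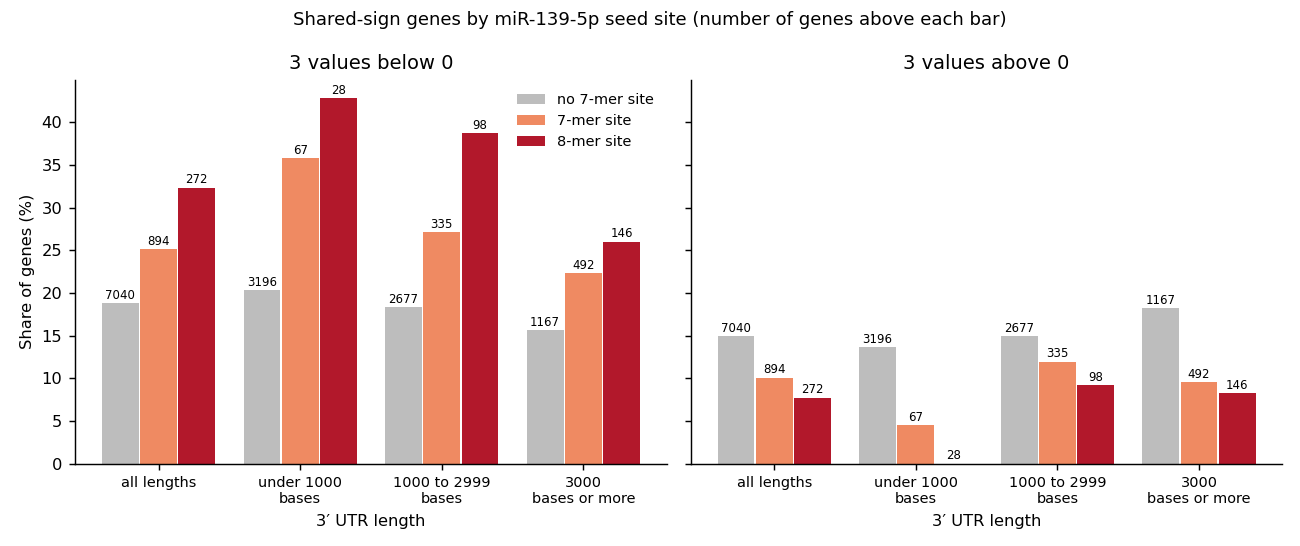
Share of genes (y axis, %) with 3 negative (left) and 3 positive (right) within-tag values by length of the 3′ UTR (x axis) and seed site, with the number of genes above each bar. Over all lengths the share with 3 negative values is 18.8% without a 7-mer, 25.2% with it and 32.4% with the 8-mer.

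Among reported targets of miR-139-5p, 22 were tested, of which 9 had 3 negative and 3 had 3 positive values, with a median interaction of −0.10 and level shares of 22.5% and 13.4%. Without the NE libraries the median was −0.03. The list holds HNRNPF, whose decrease the series' own design text states, so its direction is not independent evidence. Beyond HNRNPF and EIF4G2 the largest were MMP11, a matrix metalloproteinase (−0.03, −0.38 and −0.73 in C, NE and TR), and ETS1, a transcription factor of invasion (−0.29, −0.51 and −0.19). In ETS1 the miR-139 line went from 64.0, 54.6 and 46.6 FPKM to 58.2, 43.7 and 42.6, and the scrambled line from 60.1, 39.5 and 53.2 to 67.0, 45.3 and 55.6. The 7-mer was in 17 of the 22, and 7 of these 17 had 3 negative values.

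Except for miRNA processing and silencing, lists of RNA processing had negative shares near their level shares, with HNRNPF far outside the rest. Of 20 hnRNP genes 6 had 3 negative and 1 had 3 positive values (median −0.05 at a median level of 204 FPKM), against 25.5% and 9.94% of all genes at 100 FPKM or more, and with upper quartile scaling 4 and 4. Without the NE libraries the medians of the hnRNP, spliceosome and cleavage lists were −0.01, −0.02 and −0.02, from −0.05, −0.05 and −0.08. HNRNPUL2 (−0.21), HNRNPA1 (−0.17) and HNRNPL (−0.13) had blocked SE of 0.13, 0.18 and 0.15. Of 18 cleavage and polyadenylation factors 5 were negative and 1 was positive, 27.8% and 5.56% against level shares of 22.5% and 13.4%. After CPSF3 the values were −0.16 for the poly(A) polymerase PAPOLG, −0.08 for CPSF3L and −0.06 for the scaffold SYMPK. Core spliceosome genes had 12 negative and 1 positive of 42 (28.6% and 2.38% against level shares of 22.5% and 13.4%), and 7 and 5 with upper quartile scaling. SR proteins and their kinases had 3 and 2 of 15 (20% and 13.3% against 25.5% and 9.94%). Genes of miRNA processing and silencing had 1 and 1 of 18, that is 5.56% each, below level shares of 22.5% and 13.4%. Of 29 translation initiation factors 9 were negative and 2 positive (median −0.09, and −0.03 without NE), that is 31.0% against a level share of 25.5%. After EIF4G2 the largest were EIF2S2, a subunit of eIF2 (−0.23, −0.32 and −0.32), EIF2B3, of its exchange factor (−0.14, −0.27 and −0.43), and EIF5B, which joins ribosomal subunits (−0.14, −0.36 and −0.08).

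Cell division genes leaned lower, with 3 negative values in 18 of 44 mitosis genes and 3 positive in 0, with a median of −0.11, and −0.06 without NE, at a median level of 51.8 FPKM. The share of all genes at 20 to 100 FPKM was 22.5% and 13.4%, and with upper quartile scaling the counts were 14 and 1. CDK1, the kinase that starts mitosis, was at 88.8, 105 and 101 FPKM before and 88.9, 91.4 and 87.6 after in the miR-139 line. The scrambled line had 83.6, 78.5 and 85.6 before and 102, 115 and 89.1 after. Its change was 0.00, −0.20 and −0.21 in the first and 0.28, 0.55 and 0.06 in the second, so the larger part lay in the scrambled line. The list as a whole had median changes of −0.06 and 0.06 and stood 0.10 higher in the miR-139 line before treatment. ESPL1 (separase), DLGAP5 and BUB1, of the spindle and its checkpoint, had mean interactions of −0.22, −0.21 and −0.19. DNA replication genes, at the same level, had no such balance, with 12 negative (29.3%) and 7 positive (17.1%) of 41. Their median of −0.03 turned to 0.01 with upper quartile scaling. E2F2 (0.49) and E2F8 (0.34), transcription factors of the cell cycle, were positive, and DTL (−0.30) and the primase PRIM1 (−0.29) negative.

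Genes of amino acid supply and of the ATF4 response, which cells raise when amino acids are short, had 3 negative values in 15 of 31 cases and 3 positive in 2, that is 48.4% and 6.45% against level shares of 22.5% and 13.4%. The counts were 11 and 2 with upper quartile scaling and 10 and 2 with quantile normalization. The median interaction was −0.13, and the medians in C, NE and TR were −0.14, −0.07 and −0.17. Here the miR-139 line carried most of it, with a median change of −0.20 against −0.03. CTH, which makes cysteine, had values of −0.88, −0.44 and −0.06. SHMT2 and MTHFD2, mitochondrial enzymes of one-carbon metabolism, had −0.26, −0.34 and −0.50, and −0.42, −0.12 and −0.50, and PCK2, a mitochondrial enzyme of phosphoenolpyruvate synthesis, −0.29, −0.10 and −0.54. SHMT2 was at 229, 168 and 138 FPKM before and 160.4, 173 and 111 after in the miR-139 line, and at 296, 199 and 131 and then 249, 259 and 149 in the scrambled line. The C libraries were highest before treatment in both lines, and the groups overlapped. All 12 tested cytosolic tRNA synthetases of the 23 listed, many of them ATF4 targets, had a mean below 0. Of the 12, 7 had 3 negative and 0 had 3 positive values, 58.3% negative against a level share of 22.5%. The median was −0.12, and −0.07 without NE. With upper quartile scaling the counts were 3 and 0, that is 25% negative against 12.8% of all genes under that scaling. NARS, with a 7-mer site, led (−0.25, −0.44 and −0.11), then YARS (−0.19, −0.25 and −0.31), WARS (−0.17 in the mean) and MARS (−0.12).

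Chaperones had 15 negative and 3 positive of 30 (level shares 22.5% and 13.4%, 10 and 3 with upper quartile scaling and 8 and 3 with quantile normalization). Their median was −0.12, and −0.08 without NE, and here the scrambled line carried more, with a median change of 0.10 against −0.04. CLPX, the unfoldase of the mitochondrial ClpXP protease and the holder of an 8-mer site, was at 34.7, 30.9 and 27.7 FPKM before and 28.97, 25.0 and 27.5 after in the miR-139 line. The scrambled line had 34.4, 19.6 and 29.2 before and 39.9, 25.6 and 33.7 after, and its within-tag values were −0.46, −0.66 and −0.21. HSP90AA1 (−0.35, −0.66 and −0.13), its co-chaperone FKBP4 (−0.38, −0.38 and −0.16) and the mitochondrial chaperonin HSPD1 (−0.22, −0.47 and −0.10) had mean changes of −0.05, 0.03 and −0.08 in the miR-139 line, against 0.33, 0.34 and 0.19 with the scrambled sequence. Of 23 genes of the endoplasmic reticulum stress response 7 were negative and 0 positive (median −0.06), 30.4% against a level share of 22.5%, and 4 and 1 with upper quartile scaling. XBP1, a transcription factor of that response, had −0.46, −0.08 and −0.50, the disulfide reductase DNAJC10 −0.44, −0.57 and −0.01, and HSP90B1 and ERO1L −0.23 each in the mean.

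Of 49 mitochondrial ribosomal proteins 17 were negative and 1 positive (34.7% and 2.04% against level shares of 22.5% and 13.4%), with a median of −0.09, and −0.05 without TR, and the median change was 0.01 for the miR-139 line and 0.11 for its control. MRPL19 (−0.30, −0.55 and −0.19), MRPL42 (−0.14, −0.64 and −0.15), MRPS9 (−0.22, −0.28 and −0.29) and MRPL27 (−0.36, −0.18 and −0.12) led. Of 54 nuclear subunits of oxidative phosphorylation 14 were negative and 1 positive, 25.9% against a level share of 25.5%. The medians in C, NE and TR were 0.08, −0.04 and −0.16, and the median was 0.02 without TR. Without TR only 2 values need share a sign, and 15 members were negative and 14 positive. These were 27.8% and 25.9%, against 32.9% and 26.6% of all tested genes by the same 2 values. With upper quartile scaling the counts were 10 and 2 and 6 and 2. Of the 13 proteins encoded in mitochondrial DNA 0 were negative and 1 was positive, against level shares of 25.5% and 9.94%. Of 54 cytosolic ribosomal proteins 4 were negative and 0 positive, 7.41% and 0% against level shares of 25.5% and 9.94%. Their medians were 0.13, −0.08 and −0.20 in C, NE and TR, and the median interaction of −0.06 turned to 0.03 without TR.

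Among lists of matrix, adhesion and epithelial state, positive members outnumbered negative ones clearly in the matrix list alone. Of 34 extracellular matrix genes 11 were positive and 5 negative, with a median of 0.07 at a median level of 30.0 FPKM, where 13.4% of all genes were positive, and with upper quartile scaling 15 and 2. Its medians were 0.11 in C and 0.12 in NE, and −0.00 in TR. FN1, fibronectin, led with 0.60, 1.54 and 0.37, although its 3′ UTR holds the 7-mer. In the miR-139 line it was at 289.9, 58.1 and 438 FPKM before and 272, 90.6 and 574 after, and in the scrambled line at 204, 59.9 and 308 before and 126, 31.4 and 312 after. The NE libraries were lowest in every group and the groups overlapped (SE 1.34 without and 0.22 with the block, limma adjusted p = 1.00 for both). LTBP3, which binds latent TGF-beta (0.33, 0.76 and 0.01), and COL1A1, a chain of type I collagen (0.23, 0.43 and 0.37), followed, and MMP11 was the largest negative. Of 21 genes of epithelial and mesenchymal state 6 were positive and 5 negative, 28.6% and 23.8% against level shares of 13.4% and 22.5%. Among them were SNAI1 (0.33 in the mean), ZEB1 (−0.25) and EPCAM (−0.24). Of 10 integrins 3 were positive and 4 negative, at the same level shares. ITGA7 (0.41, 0.82 and 0.45) and ITGA11 (0.19, 1.08 and 0.03) led the positive ones. The negative ones were led by ITGA6 (−0.44, −0.67 and −0.01) and ITGB1 (−0.19 in the mean).

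**Figure D5:**
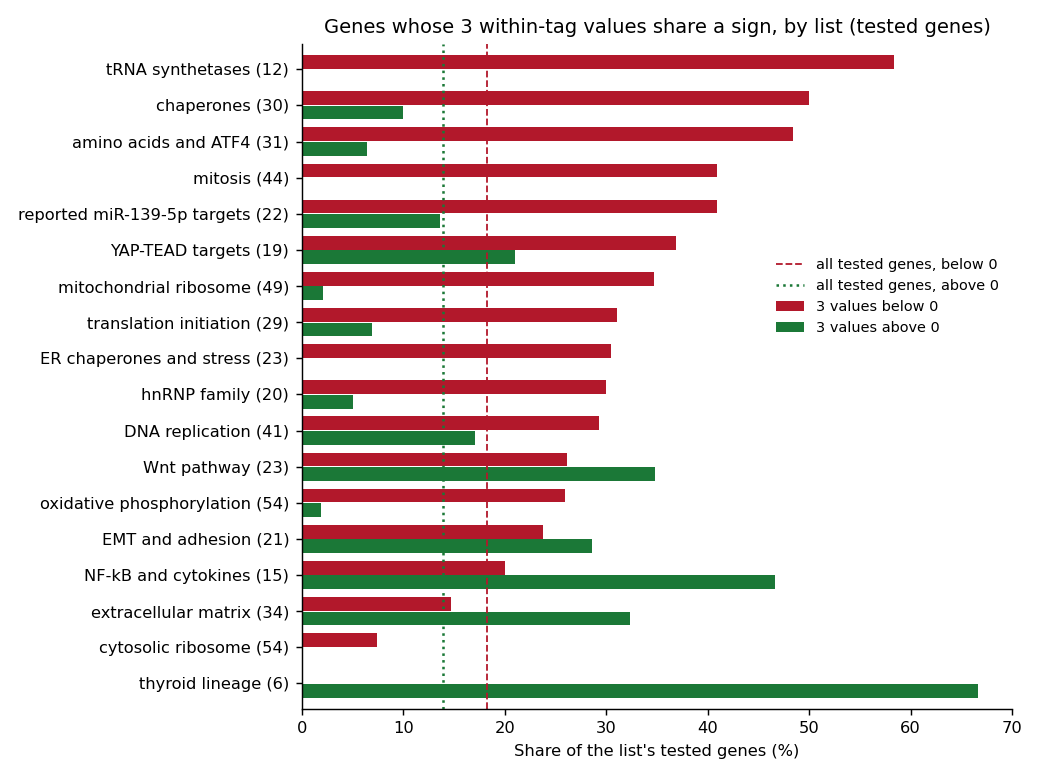
Share of the tested genes of 18 lists (y axis, number tested in parentheses) with 3 negative (red) or 3 positive (green) within-tag values (x axis, %), with the shares over all tested genes as vertical lines (18.3% and 13.9%). The tRNA synthetases (7 of 12), chaperones (15 of 30) and amino acid genes (15 of 31) have the largest negative shares, and the thyroid lineage (4 of 6) and NF-kB genes (7 of 15) the largest positive ones.

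Targets of YAP and TEAD, which respond to cell shape and contact, were split, with 7 negative and 4 positive of 19 (36.8% and 21.1% against level shares of 22.5% and 13.4%). ANKRD1 (−0.97, −0.57 and −0.42), the coagulation receptor F3 (−0.67, −0.51 and −0.36) and the receptor tyrosine kinase AXL (−0.34, −0.41 and −0.34) were negative and ARHGEF17 (0.15, 0.45 and 0.31) positive. F3 was at 36.0, 33.9 and 21.03 FPKM before and 30.6, 32.2 and 19.3 after in the miR-139 line, and at 39.7, 30.8 and 18.3 before and 54.1, 42.0 and 21.8 after in the scrambled line. The TR libraries were lowest in each group, and within each tag the treated scrambled library was the highest of the 4.

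Of 15 genes of NF-kB signalling and cytokines 7 were positive and 3 negative (level shares 14.6% and 16.4%), with a median of 0.07 that was 0.03 without NE. The largest were negative: BIRC3, an inhibitor of apoptosis (−0.36, −0.49 and −0.48), and NFKB2 (−0.45, −0.20 and −0.35), followed by the cytokine LIF (0.25 in the mean) and NFKBIB, an inhibitor of NF-kB (0.21). MAPK output genes had 3 negative and 5 positive of 15, that is 20% and 33.3% against level shares of 22.5% and 13.4%. Beside LIF the largest were FOSL1 (−0.21), PHLDA1 (−0.21) and IL11 (0.19). Of 34 interferon-stimulated genes 6 were negative and 4 positive (17.6% and 11.8% against level shares of 16.4% and 14.6%). OAS1 had −0.54, −0.49 and −0.62 at a mean of 1.52 FPKM, SP110 −0.47 and OAS3 −0.28 in the mean, and ISG15 0.29. The list's median of −0.02 turned to 0.01 with upper quartile scaling and to 0.05 without C. Of 23 Wnt genes 8 were positive and 6 negative (34.8% and 26.1% against level shares of 14.6% and 16.4%), and their median of 0.05 turned to −0.01 without NE. Among the 15 with a mean of at least 5 FPKM the balance turned, with 3 positive and 5 negative and a median of −0.06. These were 20% and 33.3%, against 13.5% and 20.2% of all genes at that filter. After PRICKLE1 the largest Wnt genes were ZNRF3 (0.31), the Wnt inhibitor DKK1 (−0.30) and KREMEN1 (0.28). DKK1 was higher after doxycycline in both lines (0.45 and 0.74), in 3 of 3 tags each.

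Of the 6 tested genes of the thyroid lineage 4 were positive and 0 negative in all 3 tags, and 2 had a mean below 0. The median was 0.15, and the level shares were 14.6% and 16.4%. Both counts of shared signs held with upper quartile scaling and quantile normalization. PAX8, the lineage transcription factor, had 0.39, 0.34 and 0.31. It was at 86.2, 113 and 109 FPKM before and 92.1, 142 and 133 after in the miR-139 line. The scrambled line had 68.9, 116 and 125 before and 56.0, 115 and 123 after. The C libraries were lowest in each group, and the groups overlapped. HHEX, a homeobox factor, had 0.02, 0.50 and 0.03, and the thyroid hormone receptor THRA had 0.14 in the mean. The lineage factor NKX2-1 was listed at 0, and TSHR and SLC5A5 had means of 0.00106 and 0.00181 FPKM. Of the 10 markers chosen for thyroid epithelium 8 were among the genes listed. Of these, 5 passed the filter: PAX8, HHEX and the keratins KRT7, KRT8 and KRT18. DUOX1 and DUOXA1 of the lineage list had means of 2.04 and 2.14 FPKM. Only part of the markers of the labelled origin was thus expressed. Among 7 keratin genes KRTAP2-3, a hair keratin-associated protein, stood apart with −1.06, −1.02 and −0.34. It was at 153, 105 and 65.0 FPKM before and 142, 112 and 79.7 after in the miR-139 line, and at 109.6, 107 and 63.0 before and 215, 232 and 98.3 after in the scrambled line (blocked SE 0.18, limma adjusted p = 0.778). KRT7 and KRT8 had 0.24 and 0.11.

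Of 31 genes of glycolysis and hypoxia 11 were negative and 5 positive (35.5% and 16.1% against level shares of 22.5% and 13.4%, and 8 and 8 with upper quartile scaling). The largest were P4HA1, a collagen prolyl hydroxylase (−0.59, −0.23 and −0.34), PFKFB3, a regulator of glycolysis (−0.32, −0.50 and −0.29), and the lactate transporter SLC16A3 (0.54, 0.29 and 0.05), before ERO1L. The remaining lists are given as negative and positive counts. Cholesterol and fatty acid synthesis had 8 and 1 of 26, against level shares of 22.5% and 13.4%, and the proteasome 9 and 3 of 30 against 25.5% and 9.94%, which turned to 5 and 3 and to 6 and 6 with upper quartile scaling. AP-1 and other immediate early genes had 4 and 3 of 16, against level shares of 22.5% and 13.4%. Their median of −0.01 turned to 0.03 with upper quartile scaling. The p53 targets had 2 and 2 of 17 and receptor tyrosine kinases 1 and 2 of 9, against level shares of 16.4% and 14.6%. Long noncoding RNAs had 5 and 4 of 18 against 22.5% and 13.4%.

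Markers of other cell types were low: the summed FPKM in any library was at most 12.6 for leukocytes, 3.06 for endothelium, 22.3 for keratinocytes and 1.23 for thyroid C cells, with PTPRC, CD3E, KRT1, KRT5, CALCA and CEACAM5 at 0. The fibroblast sum of 33.5 to 101.0 FPKM was nearly all COL1A1, and COL3A1 was listed at 0. Its part in the matrix genes was not tested. The FPKM of the genes used here summed to between 534216 and 664359 per library, and 9518 to 9884 genes per library had at least 1 FPKM. The files hold no counts, so depth is unknown. At the filter, GLUD1P2 was just inside with a mean of 1.00 FPKM and RP11-867G23.3 just outside with 0.99985.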

How the data were processed

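FPKM values per gene were computed and deposited by the authors, and no further scaling was applied to them here except in the named alternatives. The submitters' processing notes name TopHat2 2.0.10, STAR 2.5, Cufflinks and HTSeq, among others, and the builds GRCh37 and hg19. Which tool made the FPKM values is not given in the sources used here. Libraries were assigned to groups by column name; the tags do not match the replicate letters of the sample titles. With 1 exception, no tested gene lay on chromosomes 3 to 9 by symbol, and those chromosomes are not analysed here. All 12 columns were used (0 unmapped), and 0 of 66 library pairs were identical.

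Two-sided tests on log2(FPKM + 1) used limma (version 3.58.1, R 4.3.3) over all 4 groups with a variance trend and Benjamini-Hochberg adjustment over 9778 genes (threshold 0.05). The scripts were tested on simulated data. Deviations from the group means correlated for all 18 library pairs of the same tag (r 0.33 to 0.86), against −0.66 to 0.14 for the 36 pairs of different tags, so the tag was taken to pair the libraries. The blocked value is given where it changes a call.

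Genes named are HNRNPF and EIF4G2, any called gene, the 12 per direction with the largest smallest within-tag value, the 8 opposed genes per direction with the largest smallest change, and up to 4 shared-sign members of each list described with the largest mean. The members and all lists were chosen with earlier results of these data known. Sites were sought in the longest annotated 3′ UTR of GENCODE 29; 7632 genes matched by symbol and 324 by an older symbol. GRCh38 served for sequences and coordinates only. Python 3.11.15 and matplotlib 3.10.9 were used for the rest. Results of some list members are not reported here.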

Additional observations from a re-analysis of the deposited data

Results flagged for a closer look

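The doxycycline change differed between the lines for HNRNPF in the blocked limma fit (interaction −1.09). For 16 further genes every tag moved one way in the miR-139 line and the other way in the scrambled line. The interactions were −0.98 for RP11-248B24.4, −0.80 for NDRG2, −1.25 for RP11-249C24.10, −0.83 for ANKRD10-IT1, −0.72 for DYSF, −0.42 for AKR1A1, −0.43 for HEATR5A and −0.50 for RP4-742J24.2. They were 0.87 for CEBPA, 0.57 for AC007383.4, 0.44 for AL589743.1, 0.53 for HMOX1, 0.36 for STX3, 0.36 for ST3GAL2, 0.84 for PRICKLE1 and 0.48 for CTD-2270L9.4. These 16 were picked for that pattern, so it was not tested further, and none passed limma's interaction test with or without the block.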

How the results depend on the processing

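The count of called genes was 0 and became 1 with no filter on low values (RP11-54O7.10, chosen after its value was seen). With the replicate block it was 1, as it was with the block and any of these: a pseudocount of 0.1, no filter, a mean of at least 5 FPKM, upper quartile scaling, quantile normalization or no variance trend, and 0 when limma was run on the 3 within-tag values. Leaving out a tag or a library gave 0 to 1. Genes with 3 positive values numbered 1359, and 2178 with no filter. Opposed genes numbered 233 and 155, and 129 and 244 with upper quartile scaling; the cause was not tested beyond the shift of the median. For seed sites, the median interaction of genes with the 7-mer minus that of genes without was −0.0453, and it stayed below 0 in all 7 alternatives, from −0.0249 without NE to −0.0908 for 8-mers.

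Of 5140 recomputed interactions of the 112 named genes, 5099 kept their sign. The 41 that did not, in 24 genes, all came from leaving out a library or tag, 36 of them without the block, where a missing library unbalances the tags. Lowest and highest values were COL1A1 (−0.052 to 0.73), CPSF3L (−0.18 to 0.027), FKBP4 (−0.62 to 0.077), FN1 (−0.036 to 1.60), FOSL1 (−0.43 to 0.0704), HHEX (−0.037 to 0.44), HNRNPL (−0.29 to 0.12), HSP90B1 (−0.45 to 0.0046), ISG15 (−0.0043 to 0.56), ITGA11 (−0.31 to 1.24), ITGB1 (−0.37 to 0.041), KRT8 (−0.0803 to 0.34), LTBP3 (−0.086 to 0.77), MARS (−0.40 to 0.14), MRPL27 (−0.51 to 0.11), MTHFD2 (−0.84 to 0.068), NFKBIB (−0.0068 to 0.43), PAX8 (−0.0085 to 0.62), PCK2 (−0.77 to 0.11), SYMPK (−0.15 to 0.058), THRA (−0.0396 to 0.33), WARS (−0.50 to 0.10), YARS (−0.52 to 0.017) and ZEB1 (−0.47 to 0.024). FPKM carry no depth, the tags hold most of the spread, and with 3 values per gene a shared sign is weak evidence for any single gene.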
